A study of Mus musculus with 6 samples.

Results

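Axon guidance ligands and receptors were examined in mouse embryonic stem cells (ESC) and in primary cortical neurons, together with the genes that lie opposite them on the other strand. A gene was a member when its symbol belonged to the semaphorin, plexin, Eph, ephrin, Slit, Robo, netrin, Unc5, Dcc or neuropilin families, or when its exons shared at least 1 base with such a gene on the opposite strand. By this rule 87 of the 57010 genes in the deposited table were members, of which 72 matched by symbol and 15 only through their position. The symbol matches held 69 protein-coding guidance genes and 3 antisense RNA genes named after a plexin, Plxna4os1, Plxna4os2 and Plxna4os3. Symbols were matched to 91.4% of all genes, and the others could be members only through their position.

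Both groups were wild type and untreated, and each held 3 libraries of polyadenylated RNA. The ESC group held pluripotent cells kept in standard culture, and the neuron group held cortical cells taken at embryonic day 16.5 and cultured for 7 days. The labels do not say whether libraries came from separate cultures, litters or pooled embryos, so the p-values measure only the spread between these libraries, which may be technical. The library names of neuron replicates 2 and 3 carry the unexplained word empty, and that of replicate 1 does not. The batch label was identical with the group, so batch and cell type cannot be told apart. In such bulk samples, fewer cells of a type and less RNA per cell cannot be told apart either. Per the labels, the libraries served as pluripotent and neuronal reference states for placing published data on other cells.

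Guidance molecules steer growing axons and migrating cells. Semaphorins signal through plexins, and the secreted class 3 semaphorins do so together with neuropilins. Ephrins are membrane-bound ligands of the Eph receptor tyrosine kinases, Slits are secreted repellents read by Robo receptors, and netrins are read as attractants or repellents through Dcc and the Unc5 receptors. In the cortex these systems guide callosal and corticofugal axons and shape dendrites and synapses.

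Guidance genes took few of the counts. Library totals ran from 1368303 to 1775055 counts in ESC and from 513425 to 624792 in neurons, and the 69 coding guidance genes together held 199 to 292 counts per ESC library and 243 to 319 per neuron library. That was 0.0145% to 0.0164% of an ESC library and 0.0437% to 0.0511% of a neuron library. The 15 partners held more, 1563 to 1766 counts per ESC library and 1835 to 2154 per neuron library. The median coding guidance gene had 13 counts summed over the 6 libraries, and 15 genes had at least 30. The 4 EphA or Unc5 receptor genes, Epha3, Epha7, Epha8 and Unc5d, had no count, which allows a level of up to 0.865 CPM in ESC and 1.46 CPM in neurons (3 counts over a group). CPM is the count per 1000000 counts of the library, after scaling by trimmed means (TMM). These limits cover counting error only.

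The marker genes of the 2 states moved with the groups, in part. The summed level of 25 pluripotency markers was 330 to 439 CPM in ESC and 14.4 to 28.7 CPM in neurons, and Pou5f1, Nanog and Zfp42 had 0 counts in neurons. For 25 neuron markers it was 279 to 327 CPM in ESC and 1215 to 1440 CPM in neurons. Most of the neuron sum came from Nefm, which rose from 137 to 1125 CPM. Of the 8 neuron markers tested, 4 were called higher in neurons, 2 lower (Slc17a7 and Stmn2) and 2 not. Over all tested genes, 47% were called higher and 38.6% lower. The 12 astrocyte markers summed to 14.5 to 37.1 CPM in ESC and 65.7 to 102 CPM in neurons, with Slc1a2 rising from 0 to 65 counts, Sox9 at 0 and 19 counts below the filter, and Aldh1l1 at 0 in neurons. Slc4a4, also below the filter, went the other way, from 52 to 9 counts. The 12 progenitor markers summed to 58.0 to 85.0 and 122 to 155 CPM, and of the 3 tested 2 were called higher and 1 lower. Pax6 rose from 20 to 166 counts, while Top2a fell from 79 to 1 and Nes from 15 to 3. Vim and Hes1 were at 0 in neurons. Of 10 microglia markers 6, namely Tmem119, Trem2, Itgam, C1qa, C1qb and C1qc, were at 0 in both groups, the list summing to 201 to 266 CPM in ESC and 130 to 145 CPM in neurons, nearly all from Csf1r. The 11 oligodendrocyte lineage markers summed to 2598 to 2902 and 683 to 769 CPM, most of it from Cnp, which fell, while Mog, Olig1 and Gpr17 were called higher in neurons (94 to 494, 4 to 33 and 8 to 34 counts) and Mag was at 0 in both groups. The 10 endothelial and mural markers summed to 7.53 to 16.3 and 13.1 to 28.3 CPM, with Kdr, Pdgfrb and Rgs5 at 0 in neurons, and 11 fibroblast markers to 63.9 to 94.8 and 6.41 to 13.4 CPM, nearly all from Fn1, with Col1a1 at 0 in neurons. The part of these cell types in the results below was not tested.

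Because the sources used here do not say whether counting used strand, reads from a guidance gene and from a gene opposite it cannot be told apart, and each value is the count the deposited table gives to that gene. Genes whose exons overlap a gene on the other strand, 9557 of the 57010, held 91.3% ± 0.52 of the counts in ESC and 89.0% ± 0.43 in neurons (SD, n = 3). In the ESC libraries 51, 29 and 43 counts fell on Pou5f1, a pluripotency factor gene, against 18559, 13967 and 15649 on Gm19553 opposite it. Among the 13 mitochondrial mRNA genes, mt-Nd6, the one on the minus strand, held 79.1% ± 9.58 of the counts in ESC and 35.1% ± 2.00 in neurons. If reads were assigned to the strand opposite their transcripts, the counts printed for a gene would not come from its own transcripts, and those of a partner would come from the guidance gene where their exons overlap. This was not tested, so that rose and fell refer throughout to assigned counts and not to transcripts.

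Of the 69 coding guidance genes, 16 overlapped exons of a gene on the other strand and 53 did not. Across the table, 24.4% of protein-coding genes shared exonic bases in this way. Those with a partner had a median of 26.5 counts (range 2 to 199) and those without a median of 10 (range 0 to 71). The 15 partners comprised 8 antisense RNA genes, 1 processed transcript, 4 protein-coding genes and 2 genes with no symbol, which are given by identifier.

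The groups were compared by the quasi-likelihood test of edgeR over the whole table, with Benjamini-Hochberg adjustment over the 7150 genes that passed the count filter. Of these, 85.6% were called at an adjusted p under 0.05, 47% higher and 38.6% lower in neurons, and the median log2 fold change was 0.37. Of the 69 coding guidance genes 9 passed the filter, and 7 of the 9 were called higher in neurons, 1 lower and 1 not at all. Their median log2 fold change was 3.05, also when genes with no ESC count were set to their bound. The called share, 88.9%, was near the background, and a gene that passed the filter only through the group in which it was high had to differ. With no filter on low counts, 25 of the 65 coding guidance genes with counts were called (38.5%, background 40.8%), 18 higher (27.7%, background 21.2%) and 7 lower (10.8%, background 19.6%). The groups did not overlap for 18 of the 65 with neurons higher (27.7%, background 24.2%) and for 10 with ESC higher (15.4%, background 22.8%).

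Summed by family, the plexins had 18.4 to 36.9 CPM in ESC and 121 to 130 CPM in neurons, and the EphA receptors 9.03 to 10.9 and 62.6 to 77.0 CPM. Netrin receptors had 1.81 to 3.01 CPM in ESC and 19.2 to 27.4 CPM in neurons. In these 3 receptor families every neuron library lay above every ESC library under TMM, DESeq2 and total-count scaling, as it did for the class 3 semaphorins (3.62 to 3.87 against 9.62 to 20.9 CPM) and the class 4 semaphorins (37.1 to 41.6 against 43.3 to 64.0 CPM). The netrins had 57.2 to 74.5 CPM in ESC and 24.8 to 40.1 CPM in neurons, and the EphB receptors 11.6 to 13.6 and 5.96 to 10.4 CPM. Both were higher in ESC under TMM and DESeq2 scaling, and their groups overlapped under total counts, where the ratio of neurons to ESC was 0.805 for netrins and 1.06 for EphB receptors. For ephrin-A and ephrin-B ligands, neuropilins and Robos the groups overlapped under each scaling, and for Slits and class 5 to 7 semaphorins they overlapped except under total counts. No test was run on these sums. In the plexin, EphA, EphB, netrin, netrin receptor and class 3 semaphorin families 1 gene held the largest part of the higher group's counts. Ephb4 held 33 of the 43 EphB counts in ESC, and Sema3b held 20 of the 30 class 3 counts in neurons.

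**Figure D1:**
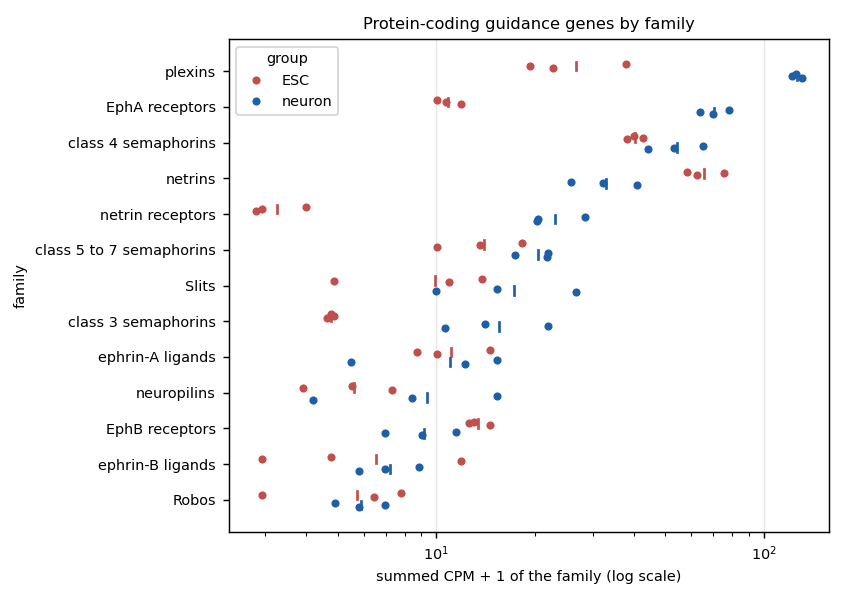
Summed CPM + 1 (log axis) of the protein-coding genes of each guidance family, with 1 point per library and a bar at the group mean. Plexins, EphA receptors and netrin receptors lie higher in all 3 neuron libraries, while netrins and EphB receptors lie higher in ESC with the TMM scaling plotted here.

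Among the receptors, Plxna2, a plexin that receives transmembrane and secreted semaphorins, was counted in neuron libraries only. No ESC library held a count of it, and the neuron libraries held 45, 36 and 44 (chromosome 1, 194300526 to 194499177, plus strand, in the coordinates of the table). Its level was 61.0 ± 8.66 CPM in neurons (SD, n = 3), at least 70.1-fold higher against a floor of 3 counts over the ESC group (edgeR log2 fold change 8.81, SE 0.64, adjusted p 4.88e-15). Plxnc1, the receptor of the membrane-anchored semaphorin Sema7a, had 5, 2 and 2 counts in ESC against 14, 18 and 14 in neurons. The groups did not overlap, and Plxnc1 rose from 2.50 ± 1.09 to 22.5 ± 4.28 CPM (edgeR log2 fold change 3.05, SE 0.46, adjusted p 1.57e-07). Plxnb2, a receptor of class 4 semaphorins, did not pass the filter, with 17, 9 and 11 counts in ESC against 4, 3 and 8 in neurons, and its levels of 10.5 ± 2.10 and 7.50 ± 4.62 CPM overlapped. Plxnb1 had 6, 1 and 3 counts against 8, 7 and 3, and Plxna1, a co-receptor with neuropilins for class 3 semaphorins, 12, 2 and 2 against 4, 3 and 1. Plxnd1, with 3 ESC and 13 neuron counts, was called higher in the fit without a filter (log2 fold change 2.52, edgeR adjusted p 0.0128), although its groups overlapped in CPM.

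The neuropilins, which bind class 3 semaphorins, were thinly counted. Nrp1 had 0, 0 and 1 counts in ESC against 7, 2 and 2 in neurons, and was called higher in neurons without a filter (log2 fold change 3.53, edgeR adjusted p 0.00479). Nrp2 had 6, 3 and 6 counts against 4, 3 and 0, and its groups overlapped. Among their ligands, Sema3b had 1 count in ESC and 20 in neurons, a ratio of 33.7 with a 95% counting interval of 5.38 to 1395, and was called without a filter (log2 fold change 4.39, edgeR adjusted p 1.73e-05). The other 6 class 3 genes had 1 to 8 counts each, and none was called in either fit.

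Class 4 semaphorins, membrane-bound ligands of B-type plexins, moved in both directions. Sema4d, the ligand of plexin-B1, had 6, 8 and 3 counts in ESC against 14, 11 and 11 in neurons, and rose from 4.99 ± 2.55 to 17.4 ± 0.96 CPM (edgeR log2 fold change 1.8, SE 0.43, adjusted p 0.000217). Sema4c, a ligand of plexin-B2, had 2, 0 and 0 counts in ESC against 18, 15 and 8 in neurons, a ratio of 34.5 with a 95% counting interval of 8.96 to 294 (edgeR log2 fold change 4.81, SE 0.63, adjusted p 7.63e-09). With counts summed over overlapping genes, its locus turned to −0.58 (edgeR adjusted p 0.00976). Sema4g did not differ beyond the spread, with 17, 19 and 13 counts against 11, 5 and 6 (edgeR log2 fold change −0.41, SE 0.40, adjusted p 0.339), and its sign turned to 0.32 under total counts. Sema4a had 15, 10 and 12 counts in ESC against 2, 3 and 1 in neurons. It was below the filter, its groups did not overlap, and without a filter it was called lower in neurons (log2 fold change −1.98, edgeR adjusted p 0.00469), as was Sema4b (11, 6 and 12 against 4, 1 and 1 counts, log2 fold change −1.64, edgeR adjusted p 0.0322). Of the transmembrane class 6 semaphorins, Sema6c had 9, 7 and 7 counts in ESC against 1, 0 and 0 in neurons, and Sema6d had 0 in ESC against 4, 5 and 5 in neurons. Both were called, in opposite directions without a filter (log2 fold changes −3.59 and 5.58, edgeR adjusted p 0.0014 and 6.68e-05).

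**Figure D2:**
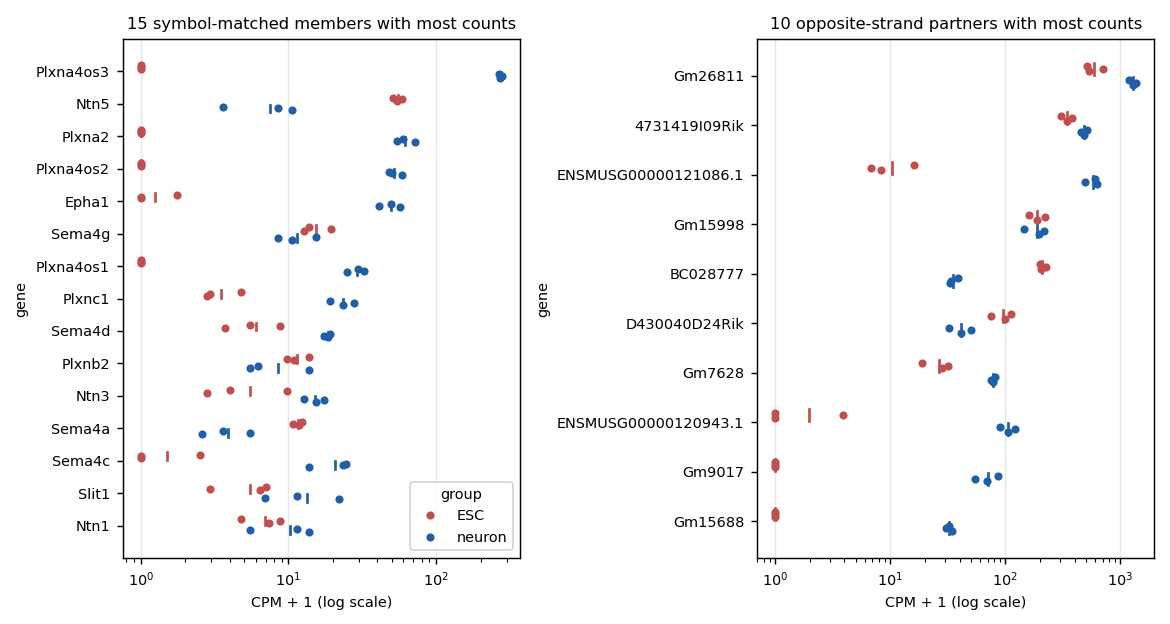
CPM + 1 (log axis) of the 15 symbol-matched members and of the 10 partners with at least 30 counts, with 1 point per library and a bar at the group mean. Points at 1 on the axis had 0 counts, as for Plxna2 and Plxna4os3 in the 3 ESC libraries. Ntn5, BC028777 and D430040D24Rik lie higher in ESC.

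Epha1, a receptor tyrosine kinase of the EphA class, held most of that family's counts. It had 1, 0 and 0 counts in ESC against 37, 27 and 35 in neurons (chromosome 6, 42335421 to 42350202, minus strand). Its level was 48.2 ± 7.93 CPM in neurons and 0.25 ± 0.43 CPM in ESC, a ratio of 167 with a 95% counting interval of 29.2 to 6644 (edgeR log2 fold change 6.83, SE 0.57, adjusted p 1.09e-13). Without a filter, Epha5 (3 ESC and 21 neuron counts) and Epha10 (6 and 19) were called higher in neurons, with log2 fold changes of 3.21 and 2.16 (edgeR adjusted p 0.000173 and 0.00641). Epha2, known from epithelia and pluripotent cells, had 3, 4 and 10 counts in ESC and 0 in neurons, at least 3.37-fold lower against a floor of 3 counts over the neuron group (no filter, edgeR adjusted p 0.00113). Epha4, with 7 and 3 counts, was not called in either fit.

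Of the EphB side, Ephb4 had 10, 10 and 13 counts in ESC against 1, 1 and 0 in neurons, while its ligand Efnb2 had 0, 0 and 2 in ESC against 5, 4 and 3 in neurons. In both genes the groups did not overlap, and without a filter Ephb4 was called lower (log2 fold change −3.28, edgeR adjusted p 0.000208) and Efnb2 higher in neurons (log2 fold change 2.91, edgeR adjusted p 0.00848). Efnb3, another transmembrane ephrin, had 5, 2 and 7 counts in ESC and 0 in neurons (no filter, edgeR adjusted p 0.00382). None of the 5 ephrin-A genes, whose products are held in the membrane by a lipid anchor, was called in either fit, and they had 2 to 23 counts each.

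Netrins and their receptors differed in direction. Ntn5, a member of the netrin family, had 67, 60 and 59 counts in ESC against 2, 5 and 6 in neurons (chromosome 7, 45333446 to 45343980, plus strand). It fell from 54.0 ± 3.84 to 6.56 ± 3.59 CPM (edgeR log2 fold change −3.06, SE 0.36, adjusted p 6.47e-10), the only coding guidance gene called lower with the filter. Per kilobase of exon it had the highest ESC level of the coding guidance genes, 24.4 ± 1.73 CPM per kb, followed by Efna3 at 2.09 ± 0.78 and Ephb4 at 2.08 ± 0.46, which did not differ beyond their spread. Ntn3 had 4, 9 and 2 counts against 9, 11 and 9 and rose from 4.51 ± 3.68 to 14.2 ± 2.33 CPM (edgeR log2 fold change 1.67, SE 0.47, adjusted p 0.00131). Summed over overlapping genes, its locus turned to −1.89 (edgeR adjusted p 1.36e-11). Ntn1, the founding axon attractant, had 5, 8 and 7 counts against 8, 3 and 8, and its groups overlapped. The receptor Unc5c had 0 counts in ESC against 16, 9 and 9 in neurons, at least 19.1-fold higher by the same floor (edgeR log2 fold change 6.94, SE 0.82, adjusted p 1.48e-09). Unc5a had 0 in ESC against 4, 1 and 3 in neurons (no filter, edgeR adjusted p 0.00478), and Dcc, the attractant receptor of the netrins, had 3 counts, all in neurons, and was not called.

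The Slit and Robo genes gave no call with the filter. Slit1 had 8, 2 and 6 counts in ESC against 8, 4 and 13 in neurons, and Slit2 9, 2 and 3 against 2, 2 and 2, with overlapping groups in both. Robo2 had 0 counts in ESC against 0, 3 and 3 in neurons and was called higher without a filter (edgeR adjusted p 0.0181), while Robo1 (7 and 1 counts) and Robo3 (9 and 1) were not.

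In neurons, Epha1 had the highest level per kilobase among coding guidance genes, 12.3 ± 2.02 CPM per kb. Sema4c (4.26 ± 1.28), Plxna2 (3.55 ± 0.50), Ntn5 (2.96 ± 1.62), Ntn3 (2.78 ± 0.46), Efna4 (2.73 ± 1.61), Plxnc1 (2.70 ± 0.51) and Sema4d (2.27 ± 0.12) came next on the same scale, and neighbours in this order after Epha1 did not differ beyond their spread. The partners reached higher levels. Gm26811 had 106 ± 20.0 CPM per kb in ESC and 232 ± 18.0 in neurons, and 4731419I09Rik had 122 ± 13.3 and 171 ± 10.7.

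The 16 coding genes with a gene opposite them were compared with that gene. In 8 pairs each gene's 5′ end lay within the span of the other, in 4 pairs the 3′ ends did, and in 4 the partner lay wholly within the guidance gene. Summed over the 16 pairs, the guidance gene held 5.50% ± 0.54 of the pair's counts in ESC and 6.29% ± 0.38 in neurons (SD, n = 3). Single pairs ranged widely, and Ntn5 supplied 186 of the 295 ESC counts on guidance genes. Without the pair of Ntn5 and Sec1, left out after the values were seen, the share was 2.11% in ESC and 6.11% in neurons. The partners held the rest, 94.5% ± 0.54 and 93.7% ± 0.38 over the 16 pairs. Were the assignment turned, a partner's counts would come from the guidance gene only where their exons overlap. The shared bases were 17.7% of the exons of Gm26811, 5.96% of those of 4731419I09Rik and 98.8% of those of ENSMUSG00000121086.1. A share under the turned assignment was not computed. In neurons the guidance gene's share as counted was 0.30% ± 0.16 for Plxna1, 1.36% ± 0.59 for Efna3, 9.63% ± 0.63 for Plxna2 and 33.7% ± 5.50 for Unc5c. Epha1 held 97.5% ± 4.33 of the neuron counts it shared with the zyxin gene Zyx. Ntn5 held 90.3% ± 2.13 in ESC, against Sec1, a fucosyltransferase gene.

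**Figure D3:**
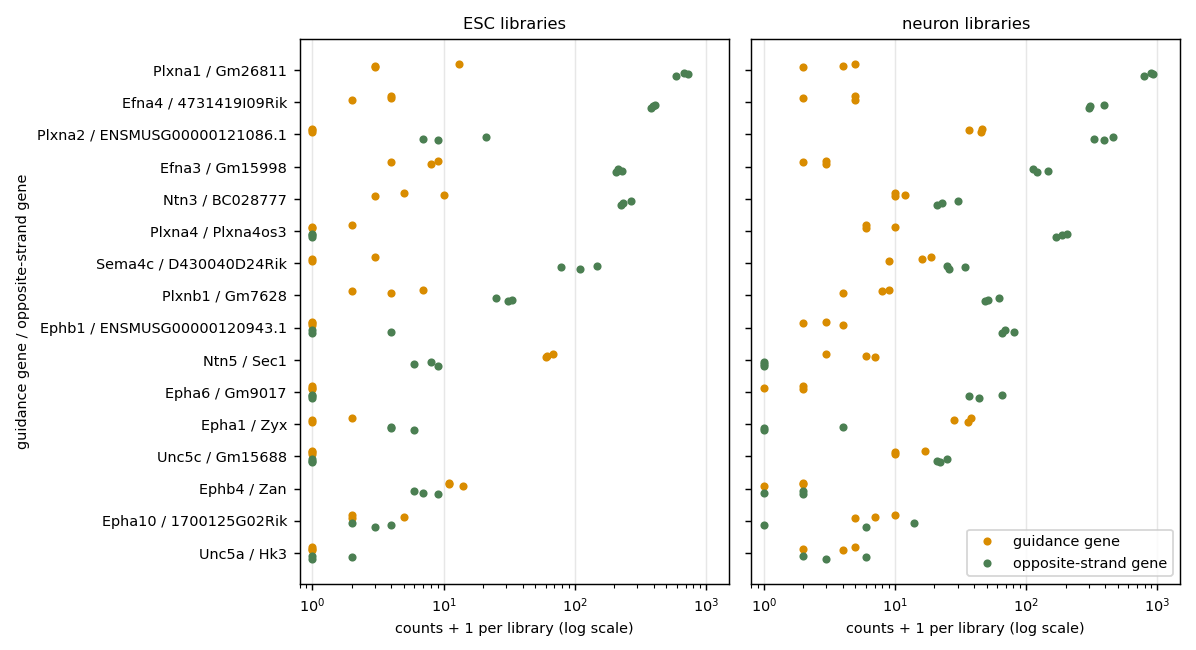
Counts + 1 per library (log axis) of each coding guidance gene and of the gene opposite it, for the ESC libraries on the left and the neuron libraries on the right, ordered by total counts. For Plxna1, Efna4, Efna3 and Plxna4 the opposite-strand gene lies above the guidance gene in all 3 neuron libraries by a wide margin, while Epha1 and Ntn5 lie above theirs.

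Of the 15 partners 10 passed the filter, and 7 were called higher in neurons, 2 lower and 1 not at all (90%, background 85.6%). Their median log2 fold change was 1.37, with or without genes set to their bound, against 0.37 over all tested genes. As for the coding genes, a partner that passed the filter only through the group in which it was high had to differ. Gm9017 and Gm15688 had no ESC count, so this median is not read as a result about the partners. The 3 Plxna4 antisense genes, counted among the symbol matches, were called higher as well. Without a filter 13 of the 15 partners were called, 9 higher and 4 lower, against a background of 40.8% called, 21.2% higher and 19.6% lower. That background includes genes with only 1 count, whereas each partner had at least 9 and their median was 216. The 2 shares are therefore not comparable, and the 85.6% among filtered genes is the nearer background.

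At the plexin loci the opposite-strand genes were higher in neurons. Plxna4os3 lies within Plxna4, shares 110 exonic bases with it and had no ESC count and 205, 187 and 169 in neurons. That was 272 ± 5.71 CPM, at least 315-fold higher against the floor of 3 counts over the ESC group (edgeR log2 fold change 10.97, SE 0.42, adjusted p 2.61e-23). Plxna4 itself, which with neuropilins receives class 3 semaphorins, had 1, 0 and 0 counts in ESC against 5, 9 and 5 in neurons and was called without a filter (log2 fold change 4.33, edgeR adjusted p 3e-05). Plxna4os2 and Plxna4os1 lie in the span of Plxna4 without sharing exonic bases. They had 36, 33 and 36 and 22, 21 and 15 neuron counts, none in ESC, and were at least 58.9-fold and 32.5-fold higher (edgeR adjusted p 3.97e-14 and 2.86e-11). The 4 genes of the Plxna4 locus were all counted in every neuron library, with a single ESC count among them.

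Opposite Plxna2 lies ENSMUSG00000121086.1 (chromosome 1, 194300525 to 194303207, minus strand), whose 2650 shared bases make up 98.8% of its exons. It had 20, 6 and 8 counts in ESC against 460, 328 and 392 in neurons and rose from 9.37 ± 4.98 to 573 ± 73.8 CPM (edgeR log2 fold change 5.86, SE 0.21, adjusted p 2.98e-24), in the same direction as Plxna2. Gm26811, sharing 970 bases with the 3′ part of Plxna1, had the most counts of all members, 673, 732 and 588 in ESC against 900, 921 and 794 in neurons, and rose 2.21-fold (edgeR log2 fold change 1.13, SE 0.11, adjusted p 4.27e-11). Plxna1 had 24 counts and overlapping groups. Gm7628, sharing 257 bases with Plxnb1, had 24, 32 and 30 counts against 61, 50 and 48 (edgeR log2 fold change 1.62, SE 0.24, adjusted p 1.53e-07).

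The partners of Ephb1, Epha6 and Unc5c were also higher in neurons. ENSMUSG00000120943.1, which shares 174 bases with Ephb1, had 0, 3 and 0 counts in ESC against 68, 80 and 65 in neurons, a ratio of 119 with a 95% counting interval of 40.3 to 584 (edgeR log2 fold change 6.70, SE 0.44, adjusted p 1.4e-16). Ephb1 had 0 in ESC against 2, 1 and 3 in neurons. Gm9017, sharing 107 bases with the first part of Epha6, had 0 counts in ESC against 65, 36 and 43 in neurons, at least 80.8-fold higher (edgeR adjusted p 1.77e-15), while Epha6 had 2 counts in all. Gm15688, sharing 118 bases with Unc5c, had 0 in ESC against 24, 20 and 21 in neurons, at least 36.5-fold higher (edgeR adjusted p 8.28e-12). At these 3 loci the receptor gene and its partner had counts in neurons and at most 3 in ESC.

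At Ntn3 and Sema4c, gene and partner moved in opposite directions. BC028777, sharing 139 bases with Ntn3, had 267, 232 and 223 counts in ESC against 29, 22 and 20 in neurons and fell from 209 ± 13.3 to 34.2 ± 3.15 CPM (edgeR log2 fold change −2.60, SE 0.19, adjusted p 2.97e-15), while Ntn3 rose. It also shares 167 bases with Tedc2, which had 2, 4 and 6 counts in ESC against 7, 6 and 6 in neurons. D430040D24Rik, sharing 334 bases with Sema4c, had 146, 77 and 108 counts against 24, 33 and 25 and fell from 94.0 ± 18.0 to 40.2 ± 8.93 CPM (edgeR log2 fold change −1.24, SE 0.23, adjusted p 5.16e-06), while Sema4c rose. D430040D24Rik also shares 119 bases with Fam178b, which had 0, 3 and 3 counts in ESC against 2, 4 and 2 in neurons. With the counts of overlapping genes summed, the Ntn3 and Sema4c loci were lower in neurons, as given above.

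The partners of Efna4 and Efna3 were counted in every library. 4731419I09Rik, sharing 168 bases with Efna4 and 1263 with the metalloprotease gene Adam15, had 407, 394 and 378 counts in ESC against 394, 305 and 298 in neurons. It rose from 343 ± 37.4 to 482 ± 30.1 CPM (edgeR log2 fold change 0.49, SE 0.12, adjusted p 0.000254), which is 0.12 above the median of all tested genes on the log2 scale. Gm15998, sharing 344 bases with Efna3, had 213, 228 and 205 counts against 111, 146 and 121 and did not pass the test (189 ± 30.3 and 186 ± 37.1 CPM, edgeR log2 fold change −0.03, SE 0.16, adjusted p 0.88). Under total counts it was called higher in neurons, at 0.70 (edgeR adjusted p 0.000109). Efna4 and Efna3 themselves had 16 and 23 counts.

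The remaining 5 partners had 9 to 24 counts each and did not pass the filter. Sec1 had 7, 5 and 8 counts in ESC and 0 in neurons, at least 3.96-fold lower, in the direction of Ntn5 opposite it (no filter, edgeR adjusted p 0.000368). Zan, the sperm protein gene opposite Ephb4, had 5, 6 and 8 counts against 1, 0 and 1 and was also called lower without a filter (edgeR adjusted p 0.0191). Zyx, opposite Epha1, had 3, 3 and 5 against 3, 0 and 0 and was not called, while Epha1 rose. Hk3, a hexokinase gene opposite Unc5a, and 1700125G02Rik, opposite Epha10, were called higher without a filter (edgeR adjusted p 0.0276 and 0.0106). The 13, 0 and 5 neuron counts of 1700125G02Rik overlapped its ESC counts of 1, 3 and 2.

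**Figure D4:**
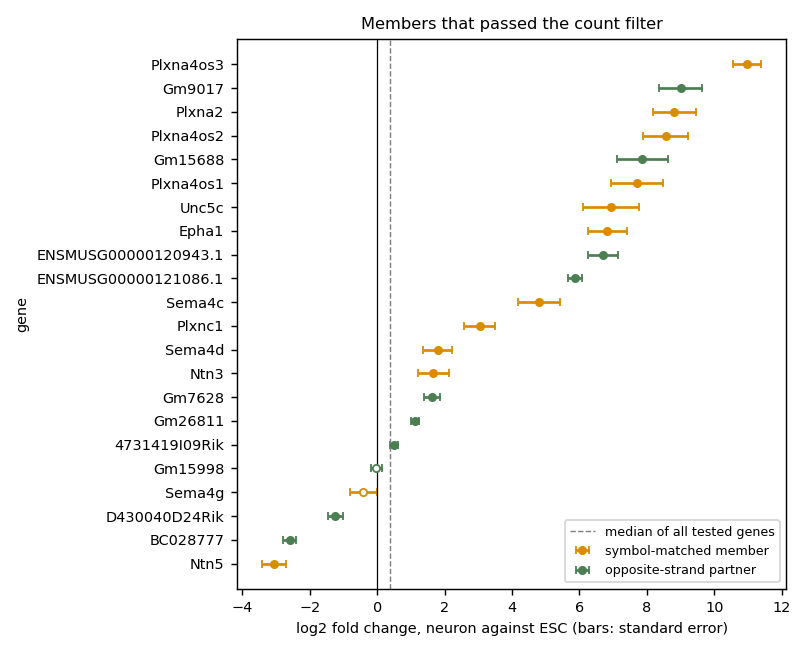
Log2 fold change, neurons against ESC, of the 22 members that passed the count filter, with standard errors as bars. Filled points passed the edgeR test at an adjusted p under 0.05, and the open points Sema4g and Gm15998 did not. The dashed line is the median of all tested genes, 0.37.

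In 8 pairs the span of the gene opposite covers the guidance gene's start, in the table's coordinates. The start regions of 5 of them, chosen after the values were seen, are shown for the loci where gene and partner were both counted nearly only in neurons or moved apart. At Plxna2, Unc5c and Epha6 the gene and its partner were both higher in, or counted only in, neurons, and at Sema4c and Ntn3 they moved apart. Each sequence is the 250 bases upstream of the most upstream RefSeq start on the gene's own strand, in build GRCm38.p6, which is not the build of the table. The positions are chr1:194619579-194619828 (plus strand), chr3:141465314-141465563 (plus), chr16:60605532-60605781 (minus), chr1:36558382-36558631 (minus) and chr17:24209388-24209637 (minus). Capitals mark GC boxes (GGGCGG, or CCGCCC on the other strand) and CCAAT boxes (CCAAT or ATTGG).
Plxna2: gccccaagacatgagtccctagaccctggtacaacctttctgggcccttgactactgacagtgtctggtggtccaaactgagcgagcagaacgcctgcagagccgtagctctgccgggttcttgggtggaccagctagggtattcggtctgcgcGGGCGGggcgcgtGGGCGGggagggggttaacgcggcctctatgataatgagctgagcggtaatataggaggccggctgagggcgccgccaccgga
Unc5c: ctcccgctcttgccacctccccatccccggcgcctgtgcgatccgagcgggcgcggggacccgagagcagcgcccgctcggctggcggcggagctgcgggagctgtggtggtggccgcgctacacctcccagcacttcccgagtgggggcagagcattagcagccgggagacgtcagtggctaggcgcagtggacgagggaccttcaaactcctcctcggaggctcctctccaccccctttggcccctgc
Epha6: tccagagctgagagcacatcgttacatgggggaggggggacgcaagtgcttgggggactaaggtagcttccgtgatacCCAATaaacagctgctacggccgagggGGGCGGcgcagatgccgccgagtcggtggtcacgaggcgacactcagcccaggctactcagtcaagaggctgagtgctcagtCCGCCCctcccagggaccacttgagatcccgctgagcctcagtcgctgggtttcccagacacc
Sema4c: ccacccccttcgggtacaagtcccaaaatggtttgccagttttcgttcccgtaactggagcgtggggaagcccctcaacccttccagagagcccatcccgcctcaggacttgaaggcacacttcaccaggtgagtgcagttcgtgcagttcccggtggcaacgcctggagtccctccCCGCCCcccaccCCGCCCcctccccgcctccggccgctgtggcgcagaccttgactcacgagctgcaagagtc
Ntn3: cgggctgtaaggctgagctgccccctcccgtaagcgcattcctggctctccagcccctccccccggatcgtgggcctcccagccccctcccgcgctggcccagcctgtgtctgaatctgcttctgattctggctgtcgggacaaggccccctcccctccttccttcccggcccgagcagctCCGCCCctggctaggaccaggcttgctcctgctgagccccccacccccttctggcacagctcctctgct

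GC boxes were found 2 times each in the windows of Plxna2, Epha6 and Sema4c, 1 time in that of Ntn3 and not in that of Unc5c. Of the 5, the Epha6 window alone held a CCAAT box. A TATA box (TATAAA or TTTATA) or the E-box CACGTG was found in none of the 5. The windows held 18 CpG in Plxna2, 23 in Unc5c, 15 each in Epha6 and Sema4c, and 11 in Ntn3. Of the other 3 genes, Plxnb1 had 4 GC boxes and 30 CpG, Efna4 no GC box, 1 CCAAT box and 7 CpG, and Ntn5 neither box and 2 CpG. A promoter was listed for 59 of the 69 coding guidance genes, with 75 starts. Of these 75 windows 70.7% held a GC box, against 32.7% of the 32851 windows of all RefSeq genes, coding and non-coding, and 26.7% against 33.9% a CCAAT box. The median number of CpG was 15 against 6. A TATA box was held by 2.67% against 12.4% and the E-box by 5.33% against 6.02%. Motif matches describe these letters only.

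Other genes of the pathway, 95 co-receptors, adaptors, GTPase regulators and cytoskeletal effectors, were listed from general knowledge. Of these, 27 passed the filter, and 17 were called higher in neurons, 8 lower and 2 not (92.6%, background 85.6%), with a median log2 fold change of 1.85, also with genes at 0 set to their bound. Here too, a gene that passed the filter only through the group in which it was high had to differ. Flrt3, Chl1, Dpysl2, Dpysl3, Neo1, Myo10, Ssh1 and Rhoa were chosen after their values were seen. Among the genes called higher were Flrt3, which encodes a ligand of Unc5 receptors, and the collapsin response genes Dpysl2 and Dpysl3, whose products act below semaphorin receptors. Flrt3 had 0, 0 and 1 counts in ESC against 36, 30 and 31 in neurons (edgeR log2 fold change 6.80, SE 0.57, adjusted p 1.17e-13), and Dpysl3 had 4 in ESC and 69 in neurons (4.71, SE 0.54, edgeR adjusted p 6.81e-10). The adhesion co-receptor gene Chl1 had 0 in ESC against 10, 12 and 13 in neurons. The netrin and repulsive guidance receptor Neo1 did not pass (edgeR adjusted p 0.963). Among the 8 called lower, Myo10 fell from 99 counts in ESC to 4 in neurons, Ssh1 from 121 to 5 and Rhoa from 71 to 9. Their edgeR log2 fold changes were −3.80, −3.77 and −2.19.

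Among effectors whose average log2 CPM reached 5, 6 were called, 2 higher and 4 lower in neurons. The plexin-linked exchange factor gene Farp2 had 38, 45 and 31 counts in ESC against 89, 70 and 87 in neurons (edgeR log2 fold change 1.85, SE 0.22, adjusted p 8e-10), and the GTPase gene Rac1 14, 17 and 13 against 46, 40 and 41 (2.26, SE 0.28, edgeR adjusted p 2.03e-09). Rnd2, known from migrating neurons, had 1351, 1114 and 1169 counts in ESC against 134, 134 and 112 in neurons (edgeR log2 fold change −2.51, SE 0.12, adjusted p 2.12e-21). The Rac exchange factor gene Tiam2, the ubiquitin ligase gene Nedd4 and the cofilin gene Cfl1 had log2 fold changes of −1.99, −2.67 and −1.72. Of the 27 tested effectors 11 overlapped exons of a gene on the other strand, among them all of these except Nedd4. Cfl1, with 101, 49 and 81 counts in ESC, shares 468 bases with Snx32, which had 15024, 10716 and 12472, and Rac1 shares 2309 bases with Daglb, which had 281, 234 and 208 in ESC against 448, 434 and 402 in neurons. Rnd2 shares 226 bases with Vat1, which had 87, 72 and 102 counts in ESC against 40, 20 and 26 in neurons. Snx32, Daglb and Vat1 are given because of their position.

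**Figure D5:**
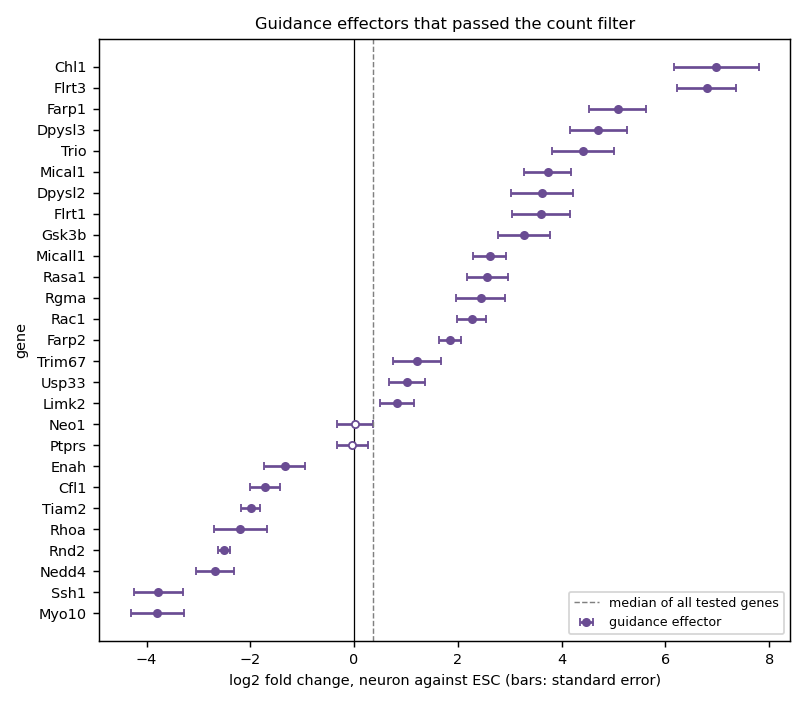
Log2 fold change, neurons against ESC, of the 27 guidance effectors that passed the count filter, with standard errors as bars. The 2 open points, Neo1 and Ptprs, did not pass the edgeR test at an adjusted p under 0.05, and 8 genes from Myo10 to Enah lie on the lower side.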

How the data were processed

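Counts per gene were analysed for 3 ESC and 3 neuron libraries, grouped by their titles and matched to table columns by library name, with 0 columns of sample values unmapped. The authors deposited raw counts with exon positions, strand and length. The submitters' processing notes name cutadapt, STAR and RSEM and the build GRCm39, without versions or roles. The counting tool, its strand setting and its treatment of multiply mapped reads are not given in the sources used here. Symbols came from GENCODE release M21 by identifier, and positions are those of the table. Promoters came from RefSeq on GRCm38.p6.

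Exonic overlaps were computed from the deposited exon positions. Genes were filtered with edgeR's filterByExpr (minimum count 10), scaled by TMM and fitted on all 6 libraries with glmQLFit (robust) and glmQLFTest, with Benjamini-Hochberg adjustment at 0.05. The standard error is the log2 fold change divided by the square root of F, which is approximate. Ratios of summed counts have exact 95% binomial intervals, which cover counting error only. The steps were tested on simulated data. Alternatives were other scalings, filters and tests (DESeq2, limma-voom), a replicate block, counts summed over overlapping genes and leaving out each library. Leaving out the pair of Ntn5 and Sec1 was added after seeing the data. Named members had at least 30 counts in all (at most 15 of each kind), the genes opposite them, and members called in a fit, and other members named with counts only were chosen after their values were seen. From the effector list the rule named the 3 highest and 3 lowest called genes whose average log2 CPM reached 5. The members and lists were chosen with earlier results of these data known. Replicate libraries differed by more than sampling noise (chi-square per degree of freedom 1.31 to 4.16), so none was a copy. Software versions were edgeR 4.0.16 and DESeq2 1.42.0 in R 4.3.3, limma 3.58.1 and Python 3.11.15.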

Additional observations from a re-analysis of the deposited data

How the results depend on the processing

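Of the 20 members called with the filter, 18 kept their direction and their side of the threshold in every alternative in which they were tested. The exceptions were Ntn3 and Sema4c, which reversed to −1.89 and −0.58 when counts were summed over overlapping genes. Neither Sema4g nor Gm15998 was called. Sema4g turned to 0.32 under total counts, and Gm15998 to 0.70 under total counts, 0.34 with a mean of at least 10 counts, 0.03 without ESC replicate 2 and 0.13 without neuron replicate 1, within a range of −0.23 to 0.13 when each library was left out. Total counts raised the median change over all tested genes, in log2, by 0.73 and the share of calls higher in neurons from 54.9% to 65.5%.

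With no filter, 11762 of 28820 genes were called (40.8%, with 21.2% higher and 19.6% lower), among them 21 guidance genes by symbol higher and 7 lower (10 and 1 with it), 9 partners higher and 4 lower, and 31 effectors higher and 16 lower. With a mean of at least 10 counts, 4 guidance genes and 10 effectors were called higher. These counts follow the number of genes tested and are not read as results about the members. Summing over overlapping genes gave 14 of 19 tested guidance loci higher and 3 lower. Such loci also hold the partners' counts, and the share called over all loci is not given here. In the main fit 85.6% of all tested genes were called. The guidance gene's share of pair counts was 4.83% in ESC with pairs sharing at least 100 bases and 4.83% with pairs of at least 100 counts, and 5.52% in neurons with the latter. It was 2.11% in ESC without the pair of Ntn5 and Sec1. The cause was not tested.

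Leaving out 1 library gave 5430 to 7353 calls over all genes, 10 to 15 guidance genes higher and 1 to 3 lower, 7 to 8 partners higher and 2 lower, 16 to 22 effectors higher and 6 to 11 lower, and shares of 5.20% to 5.72% in ESC and 6.13% to 6.51% in neurons. Without any 1 of the neuron libraries, 3 guidance genes were lower in place of 1. With the replicate block, 10 guidance genes were higher and 1 lower, and 6088 genes were called. The numbers of genes tested in the leave-out and block fits are not given here. These counts are therefore not read as results about the members. Deviations of same-numbered libraries correlated at −0.022 to 0.019, and those of differently numbered libraries at −0.025 to 0.019. With 3 libraries per group, this cannot decide whether same-numbered libraries were prepared together. At these counts 60 of 69 coding guidance genes did not pass the filter.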
